A study of Mus musculus with 45 samples.

Results

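Epithelial-mesenchymal transition (EMT) was followed through 10 genes: the transcription factors Snai1, Snai2, Twist1, Twist2, Zeb1 and Zeb2, and the state markers Cdh1, Cdh2, Epcam and Vim. These 10 were taken by name from the 55367 gene symbols of the count table, and all 10 were present. In EMT, epithelial cells loosen their junctions and take on a motile, mesenchymal form. The Snail, Twist and Zeb families are DNA-binding factors known to drive this change, in part by repressing Cdh1, which encodes the junction protein E-cadherin. Loss of Cdh1 and Epcam with gain of Cdh2 (N-cadherin) and Vim (vimentin) is the classical readout. In breast tumors these genes are also read from stroma, since fibroblasts, endothelial cells and leukocytes express several of them.

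RNA was sequenced from 45 tissues of female Balb/c mice, 3 in each of 15 groups, all taken on day 14 after inoculation. Tumors came from mice inoculated with 67NR, 4T07 or 4T1 cells (2000000 each) in a mammary fat pad. These sister lines were derived from one spontaneous mouse mammary tumor and were described by the study as nonmetastatic (67NR), invasive but nonmetastatic (4T07) and metastatic (4T1). Scaffolds, lungs and spleens were taken from the mice of each line and from healthy control mice without tumors. Scaffolds were porous polycaprolactone disks placed under the skin 2 weeks before inoculation, when mice were 7 to 8 weeks old, and every group carried one. The labels do not say which tissues came from one mouse, and name no separate cultures of a line. Levels are given as CPM, the count of a gene divided by the total count of its library and multiplied by 1000000. Libraries held 3491888 to 8175380 counts, and 3 counts, the smallest level taken as shown, were worth 0.367 to 0.859 CPM. The method counts 3' ends, so levels are compared between groups and never between genes. In bulk tissue, fewer cells of a type and less RNA per cell cannot be told apart.

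Snail and Zeb factors are known to bind the E-box CAGGTG, read on either strand as CAGGTG or CACCTG, in the promoters of epithelial genes. RefSeq promoters were given for 6 of the 10 genes, and the 250 bases before the start were searched. The motif was present in Epcam and Snai1 and was not found in Twist1, Twist2, Vim or the 4 starts of Zeb2. It was present in 5657 of 32851 promoters (17.2%), and more than once in 2.06%. Cdh1, Cdh2, Snai2 and Zeb1 were not analysed here for sequence. The 2 promoters with the motif are shown because Epcam and Snai1 are, respectively, a marker and a factor that both differed strongly between tumors. Sequences run 5′ to 3′ on the plus strand of GRCm38.p6, with the E-boxes in capitals, chr17:87635729-87635978 for Epcam and chr2:167537945-167538194 for Snai1.
Epcam: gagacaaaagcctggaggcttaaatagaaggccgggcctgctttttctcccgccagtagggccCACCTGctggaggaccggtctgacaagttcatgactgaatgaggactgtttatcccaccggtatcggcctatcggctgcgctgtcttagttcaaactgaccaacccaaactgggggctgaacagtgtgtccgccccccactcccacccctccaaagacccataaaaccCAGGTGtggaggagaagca
Snai1: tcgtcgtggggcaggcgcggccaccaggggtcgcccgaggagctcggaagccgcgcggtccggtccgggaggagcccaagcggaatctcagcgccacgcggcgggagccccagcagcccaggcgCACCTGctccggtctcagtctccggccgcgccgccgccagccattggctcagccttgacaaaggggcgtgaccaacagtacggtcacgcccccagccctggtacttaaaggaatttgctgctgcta
The Epcam boxes began 187 and 19 bases before the start, and the Snai1 box 126 bases before it. A match describes these letters only and does not show binding.

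The first question was whether the tumors of the 3 lines differ in epithelial state. Both epithelial markers were lowest in 67NR tumors, intermediate in 4T07 tumors and highest in 4T1 tumors. Cdh1 was at 8.60, 13.7 and 4.52 CPM in the 67NR tumors, 59.8, 71.7 and 62.1 in the 4T07 tumors and 159, 169 and 158 in the 4T1 tumors. Epcam, a homophilic adhesion molecule of epithelia, was at 4.84, 6.99 and 2.26 CPM in the 67NR tumors, 18.3, 22.0 and 24.8 in the 4T07 tumors and 207, 203 and 235 in the 4T1 tumors. For either gene no library of one line overlapped with one of another. Tested with edgeR's quasi-likelihood test and Benjamini-Hochberg adjustment, Cdh1 was higher in 4T07 than in 67NR tumors by 2.59 ± 0.27 on the log2 scale (SE, adjusted p = 2.7e-06), and higher in 4T1 than in 67NR tumors by 3.97 ± 0.27 (adjusted p = 4.0e-08). The Epcam differences against 67NR were 1.94 ± 0.29 in 4T07 and 5.31 ± 0.28 in 4T1 tumors (adjusted p = 7.7e-05 and 3.6e-09). From 4T07 to 4T1 the step was 1.38 ± 0.23 for Cdh1 (adjusted p = 8.3e-04) and 3.37 ± 0.24 for Epcam (adjusted p = 3.0e-07). Epcam counts per Cdh1 count were 0.500 to 0.562 in 67NR tumors, 0.305 to 0.400 in 4T07 tumors and 1.20 to 1.49 in 4T1 tumors. This ratio was higher in each 4T1 tumor than in any tumor of the other lines, a difference that was not tested.

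Cdh2 ran the other way. N-cadherin, the cadherin of mesenchymal and neural cells, was at 14.8, 12.9 and 15.0 CPM in the 67NR tumors, 1.81, 1.45 and 3.39 in the 4T07 tumors and 2.38, 1.02 and 1.30 in the 4T1 tumors. Every 67NR tumor was above every tumor of the other lines, which overlapped. Cdh2 fell by 2.97 on the log2 scale in 4T07 against 67NR tumors (adjusted p = 1.7e-05) and by 3.33 in 4T1 against 67NR tumors (adjusted p = 8.3e-06). Between 4T1 and 4T07 the difference was -0.36, with a 95% interval of -1.31 to 0.58. Cdh1 counts per Cdh2 count were thus 0.302 to 1.07 in 67NR tumors, 18.3 to 49.4 in 4T07 tumors and 67.1 to 165 in 4T1 tumors, and the ranges did not overlap. Vim, the intermediate filament protein used as the mesenchymal counterpart of keratins, did not follow this order. It was at 1184, 1922 and 2089 CPM in the 67NR tumors, 1230.0, 1217 and 1132 in the 4T07 tumors and 1763, 1917 and 2006 in the 4T1 tumors. One 67NR tumor lay within the range of the 4T07 tumors, and the others lay within or above that of the 4T1 tumors. The Vim difference between 4T07 and 67NR tumors was -0.80 on the log2 scale (adjusted p = 0.0073), under the 2-fold threshold, and reached -1.03 without that one 67NR tumor. Between 4T1 and 67NR tumors the difference was -0.08 (95% interval -0.52 to 0.37).

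**Figure D1:**
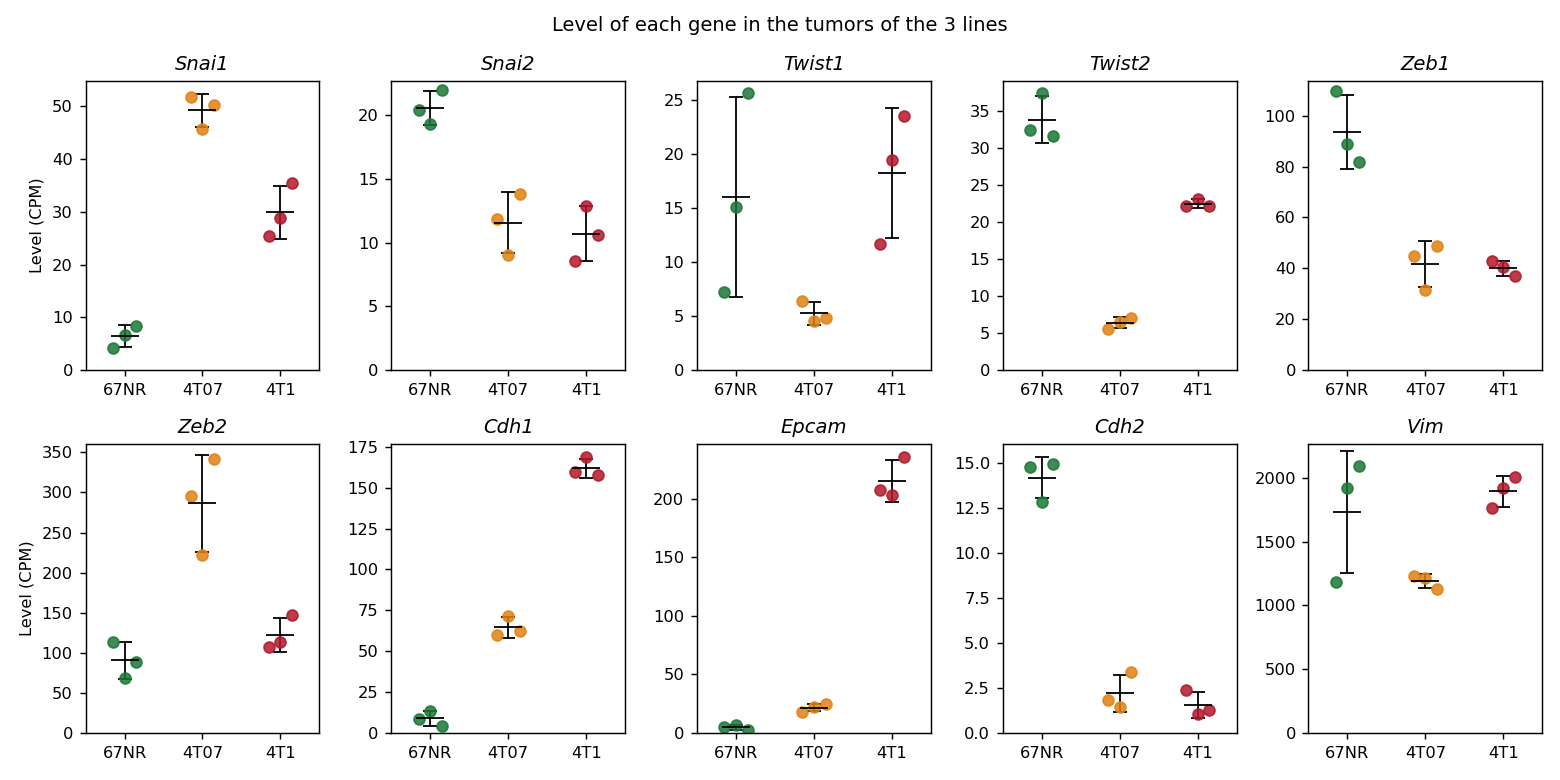
Level of each of the 10 genes (CPM, linear axes from 0) in the 3 tumors of each line. Points are tumors, and bars show the mean ± SD. Cdh1 and Epcam step up from 67NR to 4T07 to 4T1 without overlap, Cdh2 is high only in the 67NR tumors (14.8, 12.9 and 15.0 CPM) among the 9, and Snai1 is highest in the 4T07 tumors.

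The Snail pair differed from 67NR in opposite directions. Snai1, which encodes the zinc-finger repressor Snail, was at 4.30, 6.71 and 8.47 CPM in the 67NR tumors, 51.8, 45.7 and 50.2 in the 4T07 tumors and 25.4, 28.9 and 35.4 in the 4T1 tumors. The 3 lines did not overlap, and the 67NR tumors, with the least Cdh1, also had the least Snai1. Snai1 was 6.36-fold higher in 4T07 than in 67NR tumors (2.67 ± 0.25 on the log2 scale, adjusted p = 1.1e-06) and 4.00-fold higher in 4T1 than in 67NR tumors (adjusted p = 2.1e-05). In 4T1 against 4T07 tumors the log2 difference was -0.67 (adjusted p = 0.047), short of 2-fold. Snai2, which encodes its paralog Slug, was at 20.4, 19.3 and 22.0 CPM in the 67NR tumors, 11.8, 9.07 and 13.8 in the 4T07 tumors and 8.59, 12.9 and 10.6 in the 4T1 tumors. All 67NR tumors were above the others, and the 4T07 and 4T1 tumors overlapped. Relative to 67NR, the log2 difference of Snai2 was -1.09 ± 0.24 in 4T07 tumors (adjusted p = 0.0021) and -1.14 ± 0.24 in 4T1 tumors (adjusted p = 0.0018). Without one of the 4T07 tumors the first value was -0.99, just under 2-fold.

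The Twist genes, which encode basic helix-loop-helix factors of mesoderm, were lowest in 4T07 tumors. Twist2 was at 32.5, 37.5 and 31.6 CPM in the 67NR tumors, 5.62, 6.53 and 7.06 in the 4T07 tumors and 22.1, 23.2 and 22.2 in the 4T1 tumors. These values did not overlap between lines. The log2 difference of Twist2 was -2.66 ± 0.21 in 4T07 against 67NR tumors (adjusted p = 2.4e-07) and 1.87 ± 0.21 in 4T1 against 4T07 tumors (adjusted p = 3.0e-05), while 4T1 against 67NR gave -0.79 (adjusted p = 0.0050), under 2-fold. Twist1 was at 7.26, 15.1 and 25.7 CPM in the 67NR tumors, 6.42, 4.54 and 4.80 in the 4T07 tumors and 11.7, 19.5 and 23.5 in the 4T1 tumors. The 67NR tumors were the most spread, and overlapped with the 4T1 tumors but not with the 4T07 tumors. Its log2 difference was -1.86 ± 0.41 in 4T07 against 67NR tumors (adjusted p = 0.0020) and 1.83 ± 0.40 in 4T1 against 4T07 tumors (adjusted p = 0.0060). Between 4T1 and 67NR the interval of the difference was -0.80 to 0.76.

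The Zeb genes, which encode zinc-finger and homeodomain repressors of epithelial genes, also differed from each other. Zeb1 was at 109.7, 89.0 and 81.9 CPM in the 67NR tumors, 44.8, 31.4 and 48.8 in the 4T07 tumors and 42.8, 40.4 and 36.9 in the 4T1 tumors. All 67NR tumors were above all others. Relative to 67NR, the log2 difference of Zeb1 was -1.42 ± 0.19 in 4T07 tumors (adjusted p = 3.2e-05) and -1.42 ± 0.19 in 4T1 tumors (adjusted p = 3.7e-05). The 4T07 and 4T1 tumors overlapped, with an interval of -0.41 to 0.40 for their difference. Zeb2, by contrast, was highest in 4T07 tumors, at 114, 68.5 and 88.9 CPM in the 67NR tumors, 296, 222 and 341 in the 4T07 tumors and 108, 113 and 147 in the 4T1 tumors. The 67NR and 4T1 tumors overlapped and all were below the 4T07 tumors. Zeb2 was higher in 4T07 than in 67NR tumors by 1.42 ± 0.21 (adjusted p = 7.7e-05) and its difference in 4T1 against 4T07 tumors was -1.17 ± 0.21 (adjusted p = 0.0013). Zeb2 is also expressed by macrophages. The summed level of 6 leukocyte markers was 552 to 699 CPM in 67NR tumors, 366 to 527 in 4T07 tumors and 353 to 481 in 4T1 tumors. Zeb2 counts per count of Ptprc, the pan-leukocyte gene CD45, were 0.736 to 0.949 in 67NR tumors, 1.76 to 2.03 in 4T07 tumors and 0.766 to 1.60 in 4T1 tumors. Outside tumors, this ratio was 0.830 to 0.900 in control and 1.69 to 2.44 in 4T07 scaffolds. It was 0.141 to 0.226 and 0.332 to 0.381 in control and 4T07 spleens, but 0.750 to 1.03 and 0.515 to 0.845 in control and 4T07 lungs. Which cells held Zeb2 was not tested. The antisense gene Zeb2os held 33 to 54 counts in the tumors, 3.06% to 15.5% of the Zeb2 count, and whether counting used strand is not given in the sources used here.

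Counted together, 9 of the 10 genes passed the threshold (adjusted p under 0.05 and over 2-fold) in 4T07 against 67NR tumors, 4 higher and 5 lower. Among all 20508 genes tested 28.9% passed, 17.1% higher and 11.8% lower. In 4T1 against 67NR tumors 6 of 10 passed, 3 in each direction, against 20.7% of all genes (11.6% higher and 9.07% lower). In 4T1 against 4T07 tumors 5 of 10 passed, 4 higher and 1 lower, against 8.61% of all genes (3.82% and 4.79%). The lines did not overlap for 9, 7 and 7 of the 10 genes in these comparisons, where 51.3%, 46.7% and 35.9% of all genes did not. The median log2 difference over all genes was 0.16, 0.09 and -0.05, respectively. The comparisons share tumors, so their counts are not independent. DESeq2 gave the same 3 counts.

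**Figure D2:**
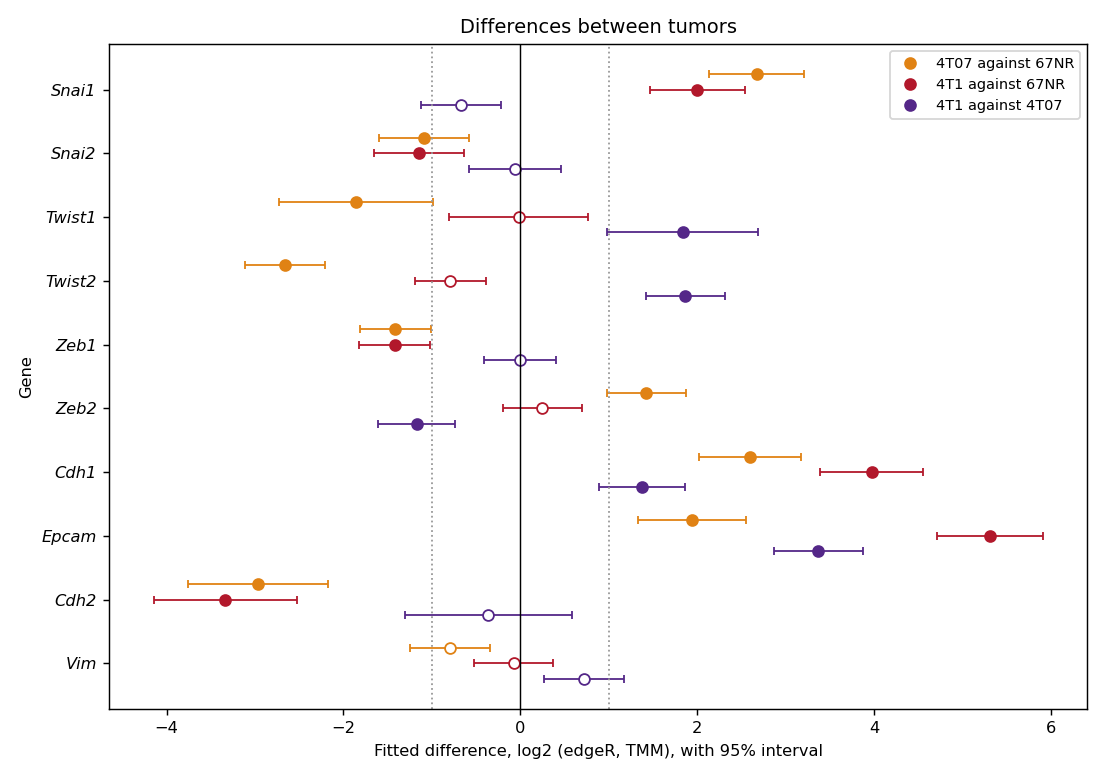
Fitted log2 differences between tumors (edgeR, TMM scaling) with 95% intervals for the 10 genes. Filled points passed the threshold, open points did not, and dotted lines mark 2-fold. The largest difference is that of Epcam in 4T1 against 67NR, 5.31, and the intervals of Zeb1, Snai2 and Cdh2 cross 0 between 4T1 and 4T07.

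Of 16 junction and keratin genes, 10 were higher and 0 lower in 4T07 than in 67NR tumors (median 1.61 on the log2 scale). In 4T1 tumors 13 were higher than in 67NR and 11 higher than in 4T07, and 0 were lower in either comparison (medians 3.25 and 1.58). Krt18, a keratin of simple epithelia, averaged 3.51 CPM in 67NR tumors, 63.7 in 4T07 tumors and 449 in 4T1 tumors, and its partner Krt8 1.38, 27.0 and 148. Cldn4, a claudin of tight junctions, averaged 2.57 CPM in 67NR and 4.17 in 4T07 tumors but 159 in 4T1 tumors (5.32 against 4T07, adjusted p = 2.8e-09). The summed level of the 16 was 69.9 to 95.9 CPM in 67NR tumors, 205 to 275 in 4T07 tumors and 1065 to 1216 in 4T1 tumors, with Cldn3 and Crb3 at 0 in every 67NR tumor.

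Factors that maintain epithelia were higher in part. Of 10 such regulators tested, 3 rose in 4T07 against 67NR tumors and 5 in 4T1 against 67NR tumors (Grhl2, Ovol2, Esrp1, Elf3 and Klf5), and 0 fell in either (medians 1.51 and 1.90). Grhl2, which activates Cdh1, averaged 1.93 CPM in 67NR tumors, 1.66 in 4T07 tumors and 16.6 in 4T1 tumors (3.32 in 4T1 against 4T07, adjusted p = 1.1e-05). In that comparison 4 of 10 rose and 1, Ehf, fell. Among the catenins, which tie cadherins to actin, 2 of 4, Ctnnb1 and Ctnnd1, rose in 4T07 and 3 of 4, with Jup, in 4T1 tumors against 67NR. Jup, the plakoglobin of desmosomes and adherens junctions, averaged 12.5 CPM in 67NR tumors, 23.2 in 4T07 tumors and 110.0 in 4T1 tumors. Ctnnb1, or beta-catenin, averaged 15.1, 81.0 and 50.2 CPM.

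**Figure D3:**
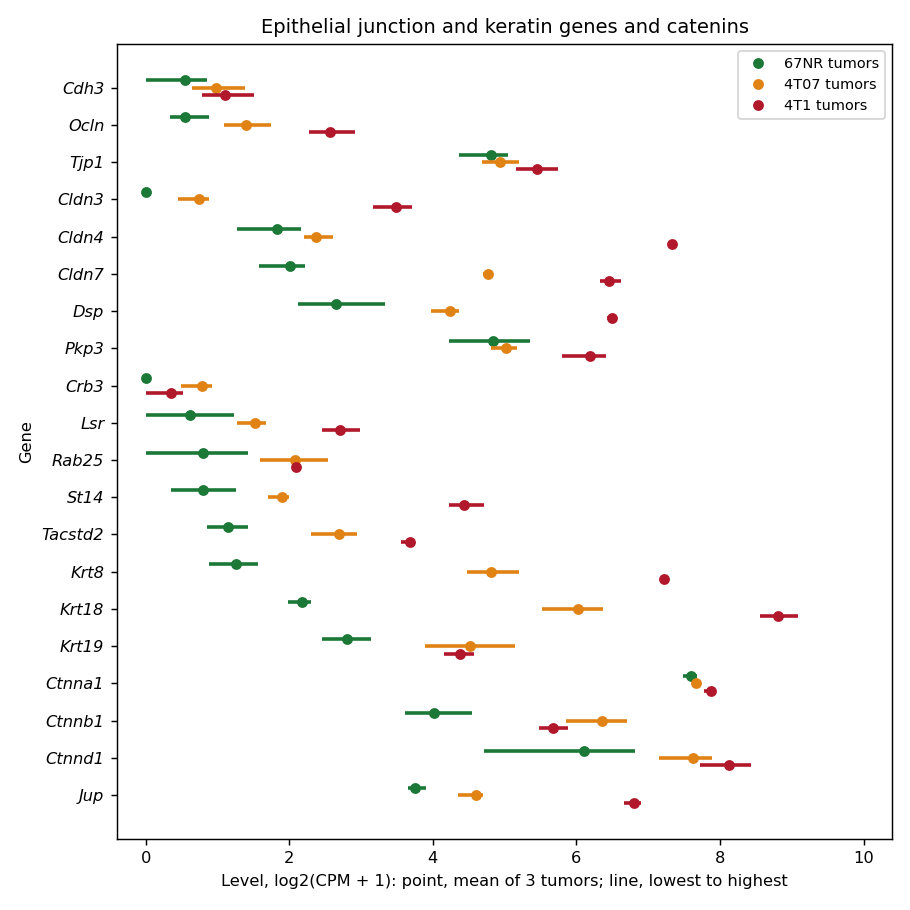
Level of 16 epithelial junction and keratin genes and 4 catenins in the tumors of each line, as log2(CPM + 1). Points are means of 3 tumors and lines run from the lowest to the highest tumor. Most genes order as 67NR, 4T07 and 4T1, with Cldn4 and Jup raised mainly in 4T1 tumors and Ctnna1 close in all 3.

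Of 12 mesenchymal state markers, 6 were higher and 1 lower in 4T07 against 67NR tumors, and 7 higher and 1 lower in 4T1 against 67NR (medians 1.00 and 1.71). Lox, a collagen crosslinking enzyme, averaged 11.9 CPM in 67NR tumors, 234 in 4T07 tumors and 151 in 4T1 tumors. S100a4, the calcium-binding protein also called fibroblast-specific protein, was the 1 marker lower in both comparisons, at 4216, 312 and 772 CPM (-4.00 in 4T07 and -2.65 in 4T1 against 67NR). Of 12 genes of TGF-beta signalling, an inducer of EMT, 2 rose in 4T07 (Tgfb2 and Smad7) and 4 in 4T1 against 67NR, 0 differed between 4T1 and 4T07, and 0 fell, where 17.1% and 11.6% of all genes were higher in 4T07 and 4T1 against 67NR. The ligand gene Tgfb2 averaged 2.96, 14.2 and 25.2 CPM in 67NR, 4T07 and 4T1 tumors.

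Stromal markers moved with the lines as well. The 8 fibroblast markers summed to 949.8 to 1196 CPM in 67NR tumors, 4835 to 7161 in 4T07 tumors and 5769 to 8899 in 4T1 tumors, 7 and 6 of 8 being higher than in 67NR, and none of the 8 was at 0 in any line. Fibroblasts are known to express Zeb1, Snai2, Twist2 and Cdh2, and their part in the tumor levels of these genes was not tested. Endothelial markers summed to 169.9 to 216, 169 to 305 and 164 to 199 CPM, and pericyte markers to 153 to 175, 139.9 to 258 and 136 to 204. Neutrophil markers summed to 18.1 to 355, 935 to 4667 and 488 to 773, and erythroid markers to 466 to 678, 2023 to 10253 and 825 to 1059. Skin epithelial markers summed to 15.3 to 38.1, 20.6 to 25.3 and 61.6 to 76.0 CPM. Among them Krt14 averaged 3.52, 5.21 and 48.2, while Krt1 was at 0 in every 4T07 and 4T1 tumor and Lor in every 4T1 tumor. Lung epithelial markers summed to 55.1 to 385, 14.7 to 101 and 4.96 to 12.1. Skin and lung epithelia are other possible sources of Cdh1 and Epcam. In 4T07 against 67NR tumors 5 of 5 neutrophil and 4 of 6 erythroid markers were higher, 4 of 6 lung epithelial markers were lower, and 0 of 5 endothelial markers passed. The 67NR tumor with the most lung markers, 1.06% of their mean in control lungs, had the most Cdh1 and Epcam of its line, 13.7 and 6.99 CPM. That percent of a control lung would hold 5.12 and 0.749 CPM. The tumor with the next most, 0.242%, had the least of both, 4.52 and 2.26 CPM, where that percent would hold 1.17 and 0.171. Without the tumor with the most lung markers, Cdh1 was higher in 4T07 than in 67NR tumors by 3.07. That tumor also had the most Cdh1 of its line, so leaving it out had to raise this difference whatever the source. The part of any of these cells in the tumor differences was not tested.

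Across the 9 tumors, the genes whose level followed Cdh1 most closely were Ifitm1, Gpa33, Aig1, Cxcl14 and Fscn1, with Pearson's r of log2(CPM + 1) from 0.991 to 0.995 among 11499 genes with a mean of at least 5 CPM. For Zeb1 they were R3hdm4, Pigyl, Dhx29, Map9 and Ccdc9b (r from 0.978 to 0.986). These values describe 9 tumors that fall into 3 lines, and so mainly restate how the lines differ. Over the 36 scaffolds, lungs and spleens the closest genes were others, led by Wipf3 and Krt7 for Cdh1 (r = 0.988 and 0.986) and by Plekhh2 and Utrn for Zeb1 (r = 0.960 in each), and there the points fall into 3 tissues.

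Each gene was then placed across all 15 groups. In the order of group means, neighbours overlapped in their 3 libraries for 8 (Vim) to 13 (Zeb2) of the 14 neighbouring pairs, so only large steps are named here. Cdh1 was highest in lungs, at 484 ± 49.1 CPM (SD, n = 3) in controls, against 16.5 ± 13.9 in control scaffolds and 10.9 ± 1.59 in control spleens. The 4T1 tumors came after the lungs at 162 ± 5.96 CPM, overlapping with the 4T07 lungs (173, 119.5 and 274). Epcam, in contrast, was highest in the 4T1 tumors, 215 ± 17.6 CPM, above control lungs at 70.8 ± 6.50, with no overlap. The 67NR tumors, 8.94 ± 4.61 CPM for Cdh1 and 4.70 ± 2.37 for Epcam, fell among scaffolds and spleens for both genes. Lung epithelial markers defined the lungs, at 35296 to 37412 CPM in controls against 66.0 to 280.0 in control scaffolds and 5.31 to 12.5 in control spleens, where leukocyte markers summed to 1434 to 1587.

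Snai1 was highest in the 4T07 tumors, 49.2 ± 3.15 CPM, without overlap with any group, followed by 4T1 tumors, which overlapped with 67NR lungs at 25.1 ± 2.52. Snai2 was highest in the 67NR, control and 4T1 lungs, 42.1 ± 1.77 CPM in controls, while the 4T07 lungs (9.31, 10.7 and 16.3) were below the 67NR tumors, and it was lowest in spleens, 4.92 ± 0.642 in controls. Zeb1 was also highest in those 3 lung groups, 249.6 ± 26.6 CPM in controls, with the 4T07 lungs (108, 87.3 and 115) among scaffolds and spleens, and lowest in 4T07 and 4T1 tumors. Zeb2 had a different order, with scaffolds at the top (379 ± 22.5 CPM in controls and 558 ± 96.9 in 4T07), where leukocyte markers summed to 1854 to 2013 CPM in controls. Twist2 and Cdh2 were highest in 67NR tumors, above the next group without overlap, which for Cdh2 was control lungs at 5.60 ± 0.325 CPM. Vim ran from 139 ± 16.8 CPM in control spleens to 2271 ± 54.8 in 4T1 scaffolds. Twist1 was shown in tumors and scaffolds, and in 4T07 spleens at 11, 7 and 4 counts. It was at or near the floor elsewhere, with 1, 2 and 0 counts in control lungs and 0, 1 and 1 in control spleens. Against control scaffolds (5.66, 5.07 and 7.87 CPM) this made scaffolds at least 12.0-fold higher than lungs and at least 9.68-fold higher than spleens, with 3 counts per library as the floor.

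**Figure D4:**
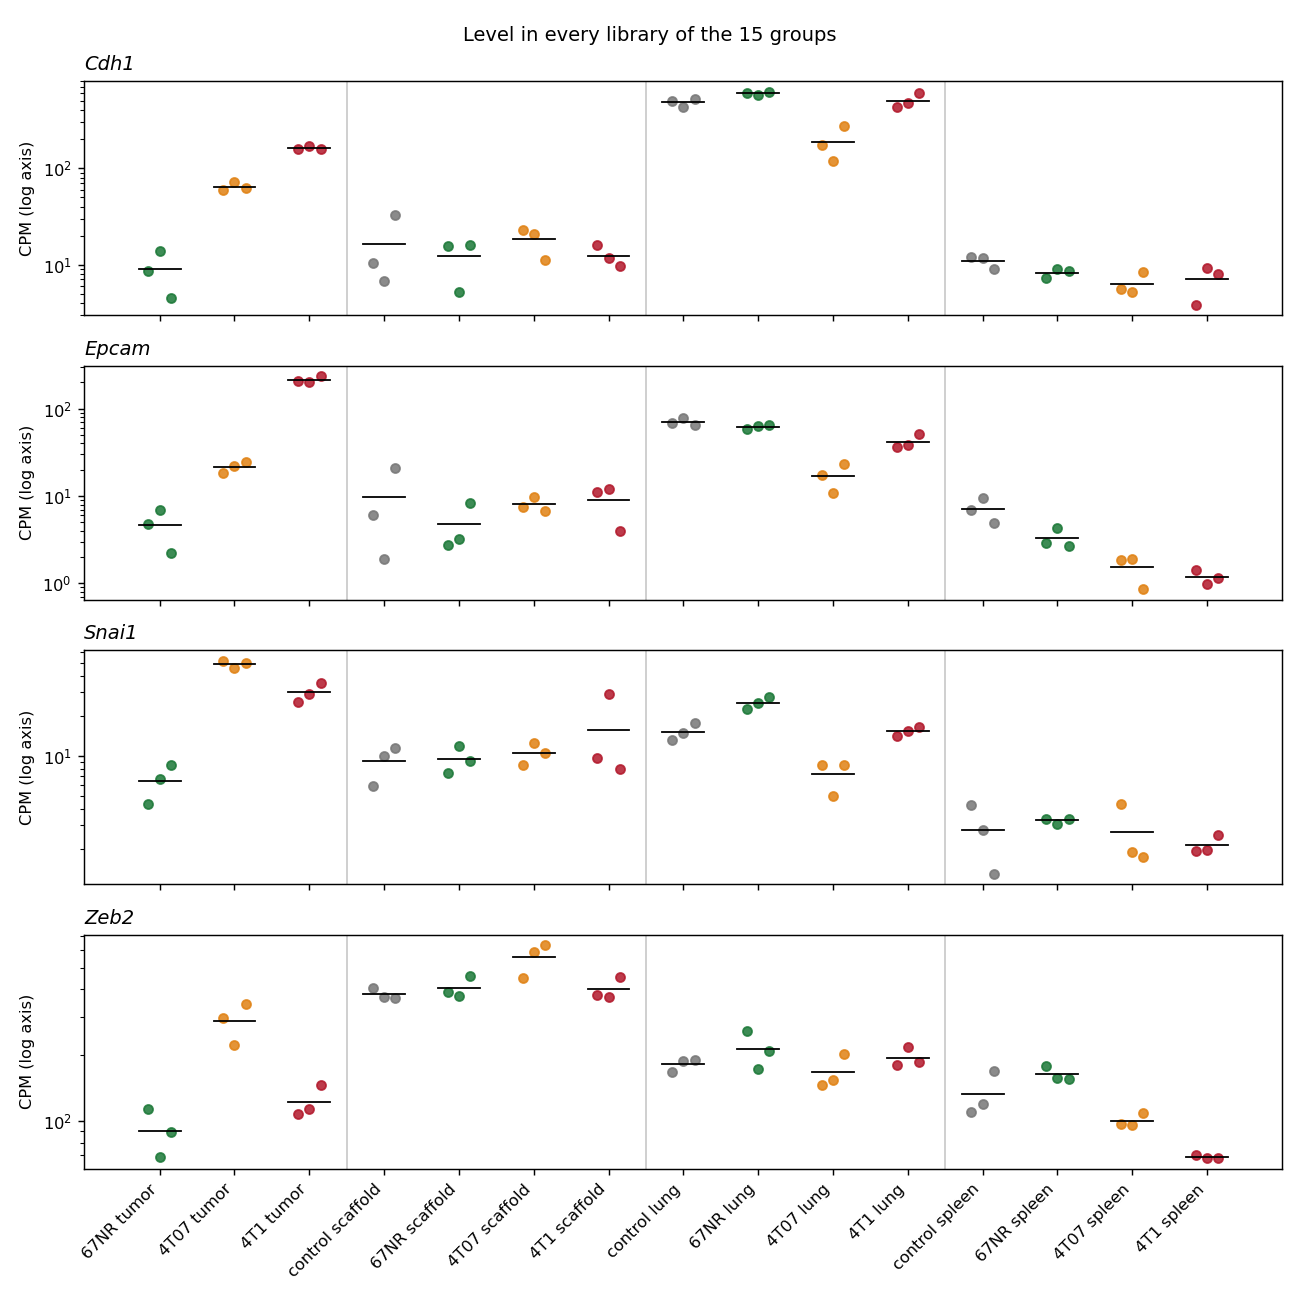
Level of Cdh1, Epcam, Snai1 and Zeb2 (CPM, log axes) in the 3 libraries of each of the 15 groups. Points are libraries, colored by line with controls in gray, and lines are means. Cdh1 is highest in lungs, Epcam and Snai1 peak in tumors, Zeb2 peaks in scaffolds, and the 4T07 lungs lie below the other lungs for Cdh1, Epcam and Snai1.

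In one fit of all 45 libraries, 7 of the 10 genes differed between control scaffolds and control lungs, where 24.1% of 27656 genes did. Cdh1 (-4.63 on the log2 scale), Epcam (-2.62) and Snai2 (-1.21) were lower in scaffolds, and Vim (1.44), Zeb2 (1.31), Twist2 (1.83) and Twist1 were higher. Between control scaffolds and control spleens 6 differed, against 25.3% of all genes, and all 6 were higher in scaffolds, as were 12.8% of all genes. They were Vim (3.82), Twist2 (3.00), Snai1 (1.88), Snai2 (1.83), Zeb2 (1.73) and Twist1. Between control lungs and control spleens 8 differed, against 29.8%, all higher in lungs (15.1% of all genes), from Zeb1 at 1.01 to Cdh1 at 5.42. The smallest of these, Zeb1 and Twist2 (1.17), lost the call without any one of 2 and of 3 libraries, respectively, with values down to 0.92 and 0.97.

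Tumors were also set against scaffolds of the same line. In 67NR, 3 genes differed (all genes, 28.5%, median -0.23). Cdh2 (1.89, adjusted p = 8.7e-07) and Twist2 (2.13, adjusted p = 2.9e-09) were higher in tumors, and Zeb2 (-2.17, adjusted p = 1.1e-12) was lower. For Cdh1 in 67NR the difference was -0.42, with a 95% interval of -1.23 to 0.40. In 4T07, 6 differed (all genes, 17.0%), with Snai1 (2.03, adjusted p = 5.0e-07), Cdh1 (1.61, adjusted p = 2.6e-04) and Epcam (1.23, adjusted p = 0.016) higher in tumors. In 4T1, 6 differed (all genes, 21.0%), with Epcam (4.44, adjusted p = 2.4e-12), Cdh1 (3.57, adjusted p = 7.5e-11) and Twist2 (1.20, adjusted p = 1.6e-04) higher. Zeb1, Zeb2 and Cdh2 were lower in tumors of both 4T07 (-1.21, -1.17 and -1.14) and 4T1 (-1.27, -1.85 and -1.48). Marker sums differed with them. Leukocyte markers summed to 552 to 699, 366 to 527 and 353 to 481 CPM in 67NR, 4T07 and 4T1 tumors and to 1713 to 1815, 1462 to 1576 and 1598 to 1941 in the scaffolds. Fibroblast markers summed to 12049 to 13965, 8768 to 12334 and 10905 to 17651 CPM in the scaffolds, each range above that of the tumors of the line. The part of these cells in the differences was not tested. Leaving out single libraries ended the calls of Cdh2 (2 of 6 libraries, lowest -0.89) and Epcam (3 of 6, adjusted p up to 0.072) in 4T07.

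In scaffolds, the engineered niche of the study, none of the 10 genes passed the threshold (adjusted p under 0.10 and over 2-fold) against control scaffolds in any line, or between 4T1 and 4T07 mice, by edgeR or DESeq2. Among all 22156 genes tested 0% passed in 67NR, 7.44% in 4T07, 0.0226% in 4T1 and 1.00% in 4T1 against 4T07. At an unadjusted p under 0.05 the numbers of the 10 were 0, 2, 1 and 2. This is a looser cutoff than that of the percentages, and no share of all genes is given at it. Zeb1 was at 116, 96.6 and 109 CPM in controls and 100.1, 69.8 and 79.5 in 4T07 scaffolds, with a log2 difference of -0.51 (adjusted p = 0.051), under 2-fold. Zeb2 was at 405, 369 and 363 CPM in controls and 449, 593 and 633 in 4T07 scaffolds, which did not overlap (0.42, adjusted p = 0.16). Single scaffolds stood apart. One 4T1 scaffold had 28.9 CPM of Snai1 and 17.9 of Twist1, where the others of its group had at most 9.63 and 4.85, together with the highest fibroblast marker sum of all scaffolds (17651 CPM). One control scaffold had 32.4 CPM of Cdh1 and 20.9 of Epcam, where the others had at most 10.3 and 6.08, with junction markers at 73.5 CPM against 21.7 and 31.5. Intervals in scaffolds were wide for Epcam, -1.44 to 1.02 in 4T1 against control.

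In lungs, the 10 genes differed mainly in the 4T07 mice. Against control lungs, 5 of the 10 genes were lower and 0 higher, where 13.7% of all 21937 genes were lower and 29.0% passed in either direction. Epcam was at 68.9, 78.1 and 65.5 CPM in control, 57.8, 63.2 and 65.7 in 67NR, 17.4, 10.7 and 23.2 in 4T07 and 36.9, 38.0 and 51.3 in 4T1 lungs. The 4T07 lungs were below all others, with a log2 difference from control of -1.99 ± 0.21 (adjusted p = 1.3e-07). Cdh1, at 502, 428 and 521 CPM in control and 173, 119.5 and 274 in 4T07 lungs, differed by -1.29 ± 0.21 (adjusted p = 4.1e-05). Genes of the mesenchymal side were lower too. Snai2 was at 43.9, 40.4 and 42.1 CPM in control and 9.31, 10.7 and 16.3 in 4T07 lungs (-1.74 ± 0.22, adjusted p = 1.4e-06). Zeb1 was at 236, 280.2 and 232 CPM in control and 108, 87.3 and 115 in 4T07 lungs (-1.21 ± 0.17, adjusted p = 5.6e-06), and Vim at 780.1, 731 and 734 and 349, 322 and 324 (-1.11 ± 0.13, adjusted p = 5.6e-07). These 5 were among 8 of the 10 genes that did not overlap between control and 4T07 lungs, and no share of all genes is given for this. Zeb2 was at 168, 189 and 190.2 CPM in control and 146, 154 and 203 in 4T07 lungs, which overlapped (-0.06, 95% interval -0.38 to 0.27). The Snai1 difference was -0.99, just short of 2-fold.

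The 4T07 lungs stood apart in their tissue markers. Lung epithelial markers summed to 5749 to 14376 CPM there, against 35296 to 37412 in control and 28661 to 35653 in 4T1 lungs, and endothelial markers to 768 to 1230.2 against 2492 to 2609.6 and 2398 to 2548. Fibroblast markers summed to 526 to 746, 1373 to 1578 and 959.8 to 1184 CPM in the same order. Erythroid markers reached 31667 to 42968 CPM, against 6561 to 8024 and 10126 to 15226, and neutrophil markers 21383 to 25346, against 213 to 281 and 11289.7 to 26354. Exocrine pancreas markers, which belong to no lung cell, summed to 222 to 300.0 CPM in 4T07 lungs and 1.08 to 1.39 in control lungs. Of these lists 5 of 6 lung epithelial, 4 of 5 endothelial and 5 of 8 fibroblast markers were lower in 4T07 than in control lungs, and 6 of 6 erythroid, 5 of 5 neutrophil and 5 of 5 pancreas markers were higher. Of the 16 junction genes 8 were lower and 1 higher, and of 11 epithelial regulators 8 were lower (medians -1.02 and -1.67, all genes -0.01). The part of these cells in the lower Cdh1, Epcam, Snai2, Zeb1 and Vim was not tested.

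Neither 67NR nor 4T1 lungs had a gene of the 10 past the threshold against control, by edgeR or DESeq2, where 4.25% and 4.61% of all genes passed. At an unadjusted p under 0.05, a looser cutoff for which no share of all genes is given, there were 2 and 3 of the 10. Differences under 2-fold passed the adjusted p alone. In 67NR lungs Snai1, at 22.6, 25.0 and 27.6 CPM against 13.1, 14.8 and 17.5 in control, differed by 0.63 (adjusted p = 0.040), and Vim by -0.45 (adjusted p = 0.034). In 4T1 lungs the Epcam difference was -0.74 (adjusted p = 0.019). In 4T1 against 4T07 lungs 6 of 10 passed, 5 higher and 1 lower, against 23.5% of all genes and 11.6% higher. Snai2 (1.42), Cdh1 (1.36), Epcam (1.25), Zeb1 (1.23) and Snai1 (1.02) were higher in 4T1 lungs. The Snai1 call was lost under 4 of 5 alternatives (0.97 to 0.98), and without 3 of 6 libraries, and the Epcam value was 0.99 without 1 of the 4T07 lungs. The lower gene was Twist1, with 0, 1 and 0 counts in 4T1 and 4, 3 and 2 in 4T07 lungs, at or near the floor.

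**Figure D5:**
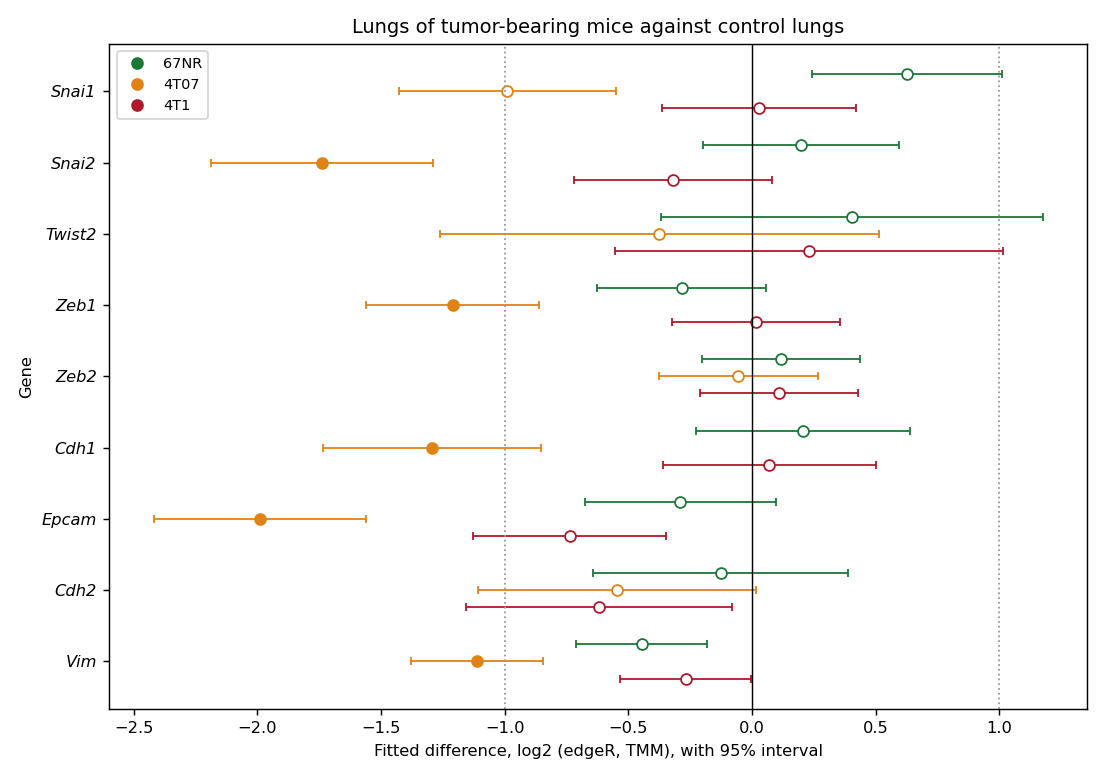
Fitted log2 differences from control lungs with 95% intervals (edgeR, TMM scaling) in the lungs of 67NR, 4T07 and 4T1 mice for 9 genes. Twist1, with at most 4 counts in any lung, is left out, filled points passed the threshold and dotted lines mark 2-fold. Only 4T07 lungs, among the 3 comparisons, have filled points, for Snai2, Zeb1, Cdh1, Epcam and Vim.

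In spleens, Epcam was lower in all 3 lines. It was at 6.99, 9.46 and 4.96 CPM in control, 2.93, 4.34 and 2.69 in 67NR, 1.85, 1.90 and 0.859 in 4T07 and 1.44, 0.979 and 1.14 in 4T1 spleens. No spleen of a tumor-bearing mouse reached a control spleen. The log2 differences from control were -1.20 in 67NR (adjusted p = 0.068), -1.97 in 4T07 (adjusted p = 0.0011) and -2.31 in 4T1 (adjusted p = 4.7e-04), and the 67NR call was lost without any 1 of 4 of the 6 spleens (adjusted p up to 0.31). Epcam was the 1 gene of the 10 called in 67NR spleens (all genes, 2.26%). In 4T07 spleens 4 were called (all genes, 18.6%). Vim, at 139, 122 and 156 CPM in control and 459, 327 and 251 in 4T07 spleens, was higher by 1.48 ± 0.22 (adjusted p = 1.2e-04). Twist1 had 11, 7 and 4 counts in 4T07 against 0, 1 and 1 in control spleens, at least 2.40-fold higher (adjusted p = 0.015). Twist2, with 13, 14 and 7 counts against 4, 6 and 6, differed by 1.22 (adjusted p = 0.064), a call that DESeq2 did not make (adjusted p = 0.17).

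In 4T1 spleens Cdh2 joined Epcam (2 of 10, all genes 19.9%). Cdh2 had 3, 1 and 1 counts there, 13, 11 and 4 in control and 12, 11 and 5 in 4T07 spleens, so control spleens were at least 2.77-fold and 4T07 spleens at least 2.71-fold higher. In 4T1 against 4T07 spleens Cdh2 was the 1 call (adjusted p = 0.090, all genes 2.33%). DESeq2 called none there, and the call was lost without each of the 6 spleens in turn (adjusted p up to 0.28). Zeb1, at 109, 124 and 128 CPM in control and 53.7, 73.2 and 52.8 in 4T1 spleens, differed by -0.75 (adjusted p = 0.0034), under 2-fold. Neutrophil markers summed to 928 to 1644 CPM in control, 21561 to 26361 in 4T07 and 11601 to 29882 in 4T1 spleens. Lung epithelial markers reached 41.0 to 87.5 CPM in 4T07 spleens against 5.31 to 12.5 in control, and exocrine pancreas markers varied from 2.16 to 408 CPM among control spleens and from 126 to 2199 among 4T1 spleens. Leukocyte markers summed to 1434 to 1587 CPM in control, 1007 to 1136 in 67NR, 658 to 696 in 4T07 and 635 to 831 in 4T1 spleens. Mesothelial markers, of a tissue that covers the spleen, summed to 45.4 to 55.8, 26.5 to 36.3, 8.02 to 13.4 and 13.7 to 17.6 in the same order, and endothelial markers to 324 to 429.7, 399 to 439.9, 169.8 to 205 and 122 to 193. For leukocyte and mesothelial markers, as for Epcam, every spleen of a tumor-bearing mouse was below every control spleen. The part of any of these markers in the spleen differences was not tested.

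Whether the 4T1 to 4T07 difference varies with tissue was tested as an interaction, each tissue minus scaffold, at an adjusted p under 0.10. For tumors, 3 of 10 genes differed (all genes, 5.69%): Epcam by 3.22 ± 0.55 (adjusted p = 1.0e-04), Cdh1 by 1.96 ± 0.49 (adjusted p = 0.011) and Twist2 by 1.50 ± 0.37 (adjusted p = 0.012). Each was higher in 4T1 than in 4T07 tumors by more than in scaffolds, where Epcam, Cdh1 and Twist2 had differences of 0.20, -0.52 and 0.42. For lungs, 5 of 10 differed (all genes, 16.9%), with Cdh1 (1.97), Snai2 (1.23) and Zeb1 (1.20) the best resolved (adjusted p = 0.0036, 0.0082 and 5.6e-04). For spleens, 2 of 10 differed (all genes, 1.22%), Cdh2 and Vim, with differences of -2.25 and -1.09 (adjusted p = 0.096 and 0.060). Leaving out one library changed these counts to as many as 5 for tumors (without 1 of the 4T1 tumors), to between 3 and 6 for lungs (3 without 1 of the 4T07 lungs) and to between 0 and 3 for spleens.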

How the data were processed

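RNA from 45 tissues was sequenced as 3' tags with the QuantSeq 3' FWD kit with unique molecular identifiers. Per the submitters' processing notes, reads were trimmed with Trim Galore 0.5.0, aligned with STAR 2.6.0 and counted with featureCounts. The authors deposited raw counts per gene symbol in one table, with no normalization, and the genome build, annotation, strand setting and collapsing of identifiers are not given in the sources used here. Lines that repeated a symbol (120) were summed, leaving 55367 symbols.

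Libraries were mapped to groups by the labels. CPM used library totals (3491888 to 8175380 counts), so a level of few counts carries counting error that 3 libraries cannot average out. Differences were tested within each tissue with edgeR 4.0.16 (TMM scaling, genes with more than 10 counts, quasi-likelihood test, Benjamini-Hochberg adjustment over all genes) in R 4.3.3, and between tissues in one fit of all groups. Thresholds within tissues followed the study: over 2-fold with an adjusted p under 0.05 for tumors, or under 0.10 for scaffolds, lungs and spleens. Between tissues 0.05 with over 2-fold was chosen here, and interactions used 0.10 with no fold threshold. DESeq2 1.42.0, other scalings, filters and samples were alternatives. The fit was tested on simulated data. The 10 genes and 18 further lists were chosen with earlier results of these data known. One list is not reported here. Named list genes were, per list and tumor comparison, at most the 3 with the largest called differences in each direction among those not overlapping and averaging at least 5 CPM, and members of counts of 5 or fewer were named after their values were seen. P-values rest on the spread between libraries within groups, pooled over all groups of a fit and drawn toward that of other genes. Standard errors were back-calculated as the absolute log2 difference divided by the square root of the F statistic of edgeR's quasi-likelihood test. The 95% intervals were built from them. With 3 libraries per group, an exact permutation of 3 against 3 could not go below 0.1.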

Additional observations from a re-analysis of the deposited data

Results flagged for a closer look

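The difference between 4T1 and 4T07 on the log2 scale, taken in one tissue minus that in scaffolds, passed an adjusted p of 0.10 by edgeR's quasi-likelihood test for 10 values. In tumors minus scaffolds it was 3.22 (adjusted p = 1.0e-04) for Epcam, 1.96 (adjusted p = 0.011) for Cdh1 and 1.50 (adjusted p = 0.012) for Twist2. In lungs minus scaffolds it was 1.97 (adjusted p = 0.0036) for Cdh1, 1.23 (adjusted p = 0.0082) for Snai2, 1.20 (adjusted p = 5.6e-04) for Zeb1 and 0.69 (adjusted p = 0.076) for Zeb2. The Twist1 value in lungs, -4.08 (adjusted p = 0.033), rests on lungs with at most 4 counts. In spleens minus scaffolds it was -1.09 (adjusted p = 0.060) for Vim and -2.25 (adjusted p = 0.096) for Cdh2, whose 4T1 spleens held at most 3 counts. Leaving out each of 12 libraries in turn ended the call of Zeb2 in lungs in 7 cases and of Twist1 in lungs in 1. It ended that of Vim in spleens in 6 and of Cdh2 in spleens in 8, and no other of the 10 calls. All 4T07 lungs also had lower lung epithelial marker sums (5749 to 14376 CPM) than all 4T1 lungs (28661 to 35653 CPM), and the part of this in the lung values was not tested. No test for a single outlying sample within a group was made, since each held 3.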

How the results depend on the processing

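Of the 404 log2 differences recomputed under another tool, scaling, filter or choice of samples, 393 kept direction and side of the threshold. The cause of the other changes was not tested unless stated. Of 150 mean levels in CPM, 127 stayed within 1 SD of their group under TMM scaling over the 45 libraries, and 23 moved by more. The difference of Zeb1 between 4T1 and 4T07 tumors changed sign, to 0.025, when only the 2 compared groups were fitted. With at least 10 counts required in every spleen, which left 4 of the 10 genes to test, 0 were called in 67NR, 1 in 4T07 and 0 in 4T1 against control spleens, and 0 in 4T1 against 4T07 spleens. The last count was also 0 with DESeq2 and when only the 2 compared groups were fitted. DESeq2 called 5 genes for the difference of tumors minus scaffolds and 4 for spleens minus scaffolds. Each library was left out in turn in 630 values, keeping the trended dispersion of the full fit where all 45 libraries were fitted, and 567 kept direction and side. The values that changed sign were not called: they ranged from -0.31 to 0.038 for Vim and -0.39 to 0.45 for Twist1 (4T1 against 67NR tumors), and from -0.16 to 0.14 for Zeb1, -0.20 to 0.093 for Snai2 and -0.81 to 0.032 for Cdh2 (4T1 against 4T07 tumors). The number of genes called then ranged from 0 to 1 in 67NR against control spleens, was 0 throughout in 4T1 against 4T07 spleens, and ranged from 3 to 5, 3 to 6 and 0 to 3 for tumors, lungs and spleens minus scaffolds. No paired analysis was possible because library numbers run through the whole series and the labels link no tissues of one mouse. Twist1 outside tumors and scaffolds, and Twist2 and Cdh2 in spleens, were too near 3 counts for their depth to resolve less than large differences.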
